A study of Mus musculus with 15 samples.

Results

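The 35 genes described here encode the enzymes that turn glucose into pyruvate and lactate, the carriers that move lactate and pyruvate across membranes, and the proteins that bring pyruvate into the citric acid cycle. They were chosen by symbol as genes of the pathway, with earlier results of these data known, out of 35142 genes that the transcript estimates covered. Of the 35, 34 passed a filter of at least 1 CPM in at least 2 cultures, as did 15360 genes in all. CPM is a gene's count scaled to the same library total in every culture. Glycolysis splits glucose into pyruvate in the cytosol. Most of its steps can be run by several enzymes from separate genes, called isozymes, that differ in where they are expressed and how they are controlled. Lactate dehydrogenase then reduces pyruvate to lactate, which leaves the cell through monocarboxylate carriers, or a pyruvate carrier and the pyruvate dehydrogenase complex feed it to mitochondria. In brain tissue, glial cells are known for high glycolysis and lactate release, and neurons for oxidising pyruvate and lactate.

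The study asked how brain cells respond to interleukin-12 (IL-12), a cytokine of immune cells. Cerebellar cells from C57BL/6 wild-type pups of postnatal day 0 to 4 were grown for 14 days in vitro, and then 5 cultures were left unstimulated, 5 received 30 ng/ml and 5 received 100 ng/ml recombinant murine IL-12p70 for 18 h. All carried the same genotype. The labels number the cultures 1 to 5 in each group and do not say that they came from separate preparations, so p-values measure the spread between these cultures, which may be partly technical.

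The labels call the cells neurons, but the cultures held transcripts of several cell types. The 15 cerebellar neuron markers summed to 194 to 265 TPM (transcript abundance corrected for length and scaled to the same total in every culture), against 7701 to 13539 TPM for 15 microglial markers, 4821 to 6713 TPM for 11 astrocyte markers and 6220 to 10282 TPM for 12 markers of the oligodendrocyte lineage. None of the neuronal, astrocyte, microglial or oligodendrocyte markers was at 0 in any group. In such bulk samples, fewer cells of a type and less RNA per cell cannot be told apart. Between 25746096 and 38435850 reads were assigned per culture.

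At 100 ng/ml, 10 of the 34 tested genes fell and 2 rose at a false discovery rate (FDR) under 0.05 by edgeR's quasi-likelihood test. At 30 ng/ml, 11 fell and 1 rose. Over all genes tested, 3.93% were called lower and 5.83% higher at 100 ng/ml, and 3.71% lower and 4.16% higher at 30 ng/ml, against 29.4% of the pathway's genes lower at 100 ng/ml and 32.4% at 30 ng/ml. The fall ran through phosphofructokinase L, aldolase A, triose isomerase, phosphoglycerate kinase, phosphoglycerate mutase, enolase 1, pyruvate kinase and lactate dehydrogenase A. The gene for aldolase C rose at both concentrations. No gene of pyruvate oxidation was called. Both comparisons share the same 5 unstimulated cultures, so their calls are not independent. The genes were chosen with earlier results of these data known, so the shares called among them are not independent of these data either. In 9 genes the fall was called at both concentrations, and 14 genes were called at either.

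**Figure D1:**
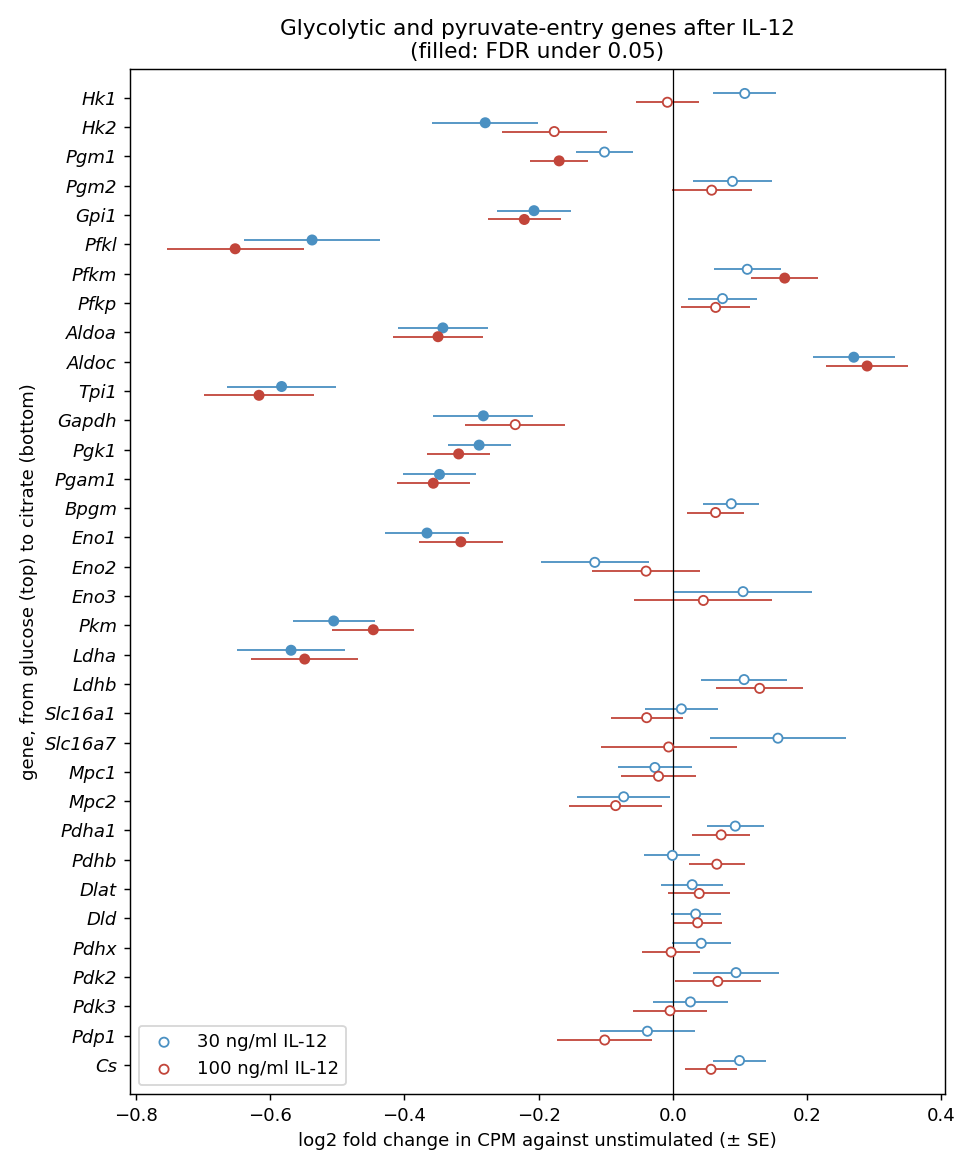
Log2 fold change in CPM against unstimulated cultures (x axis, ± SE) for the 34 tested genes (y axis, from glucose at the top to citrate at the bottom), at 30 ng/ml (blue) and 100 ng/ml (red), with filled points for FDR under 0.05. The filled points on the left are genes of glycolysis and lactate formation, and Pgm1 of the link to glycogen. At 100 ng/ml they run from Pfkl at -0.65 to Pgm1 at -0.17. The genes from Mpc1 to Cs lie between -0.10 and 0.10.

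Glucose is trapped in the cell by hexokinases. *Hk1* (hexokinase 1, ENSMUSG00000037012, chr10:62104621-62215687 in GRCm39), which binds the mitochondrial surface, was the more abundant at 50.6 ± 2.85 TPM (mean ± SD, n = 5) in unstimulated cultures, against 21.2 ± 2.68 TPM for *Hk2* (ENSMUSG00000000628, chr6:82699740-82751469), the inducible form. *Hk3*, which is outside this set of genes, averaged 33.5 TPM without IL-12 and was not called at either concentration. *Hk1* ranged from 104 to 131 CPM over the 15 cultures and was not called. *Hk2* measured 70.4, 57.1, 76.1, 74.0 and 76.5 CPM in unstimulated cultures 1 to 5, 52.7, 58.3, 58.5, 69.7 and 52.5 CPM with 30 ng/ml and 64.0, 63.9, 60.9, 61.8 and 62.7 CPM with 100 ng/ml. Unstimulated culture 2 was low and culture 4 at 30 ng/ml was high, so that the groups overlapped. The log2 fold change of *Hk2* was -0.28 ± 0.08 (SE; FDR = 0.0363) at 30 ng/ml and -0.18 ± 0.08 (SE; FDR = 0.164) at 100 ng/ml. The call at 30 ng/ml was lost without unstimulated culture 1, 3, 4 or 5 or without culture 1, 2, 3 or 5 at 30 ng/ml, with FDR up to 0.105.

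Glucose 6-phosphate isomerase, encoded by *Gpi1* (ENSMUSG00000036427, chr7:33900755-33929780), makes fructose 6-phosphate. *Gpi1* measured 464, 408, 448, 434 and 443 CPM in unstimulated cultures 1 to 5, 371, 379, 366, 427 and 360.5 CPM with 30 ng/ml and 403, 338, 385, 372 and 387 CPM with 100 ng/ml. All cultures at 100 ng/ml lay below all unstimulated ones, while culture 4 at 30 ng/ml overlapped them. The log2 fold change was -0.22 ± 0.05 (SE; FDR = 0.0164) at 100 ng/ml and -0.21 ± 0.05 (SE; FDR = 0.0263) at 30 ng/ml. At 30 ng/ml the call was lost without unstimulated culture 1, 3 or 5 or without culture 1, 2, 3 or 5 of that group, with FDR up to 0.0807. The phosphoglucomutase *Pgm1* (ENSMUSG00000025791, chr4:99786394-99844492) links glucose 6-phosphate to glycogen, and *Pgm2* is a related gene. *Pgm1* measured 79.7, 74.5, 74.6, 78.5 and 81.4 CPM in unstimulated cultures 1 to 5, 68.6, 71.1, 71.7, 78.4 and 72.5 CPM with 30 ng/ml and 68.2, 66.7, 73.0, 69.9 and 67.9 CPM with 100 ng/ml. Every culture at 100 ng/ml was below every unstimulated culture, a fall of 11.1% with a log2 fold change of -0.17 ± 0.04 (SE; FDR = 0.0193). That call was lost without unstimulated culture 1 or 5 (FDR up to 0.0638). At 30 ng/ml *Pgm1* had a log2 fold change of -0.10 ± 0.04 (SE; FDR = 0.162), and *Pgm2* ranged from 36.0 to 47.2 CPM and was not called.

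Phosphofructokinase commits sugar to glycolysis, and mammals have 3 subunit genes for it. *Pfkl* measured 153, 120.1, 140.0, 149 and 151 CPM in unstimulated cultures 1 to 5, 81.2, 102, 88.5, 125 and 94.5 CPM with 30 ng/ml and 99.6, 74.1, 88.7, 92.2 and 98.4 CPM with 100 ng/ml. *Pfkl* (ENSMUSG00000020277, chr10:77818084-77845922), the liver-type subunit, was lower in every culture at 100 ng/ml than in any without IL-12, while culture 4 at 30 ng/ml reached the unstimulated range. Its log2 fold change was -0.65 ± 0.10 (SE; FDR = 0.000681) at 100 ng/ml, a fall of 36.4%, and -0.54 ± 0.10 (SE; FDR = 0.00431) at 30 ng/ml. *Pfkm* measured 137, 148, 151, 139.5 and 142 CPM in unstimulated cultures 1 to 5, 167, 151, 156, 147 and 152 CPM with 30 ng/ml and 171, 144, 169, 158 and 164 CPM with 100 ng/ml. The muscle-type *Pfkm* (ENSMUSG00000033065, chr15:97990451-98031417) had a log2 fold change of 0.17 ± 0.05 (SE; FDR = 0.0431) at 100 ng/ml, with overlapping groups, and 0.11 ± 0.05 (SE; FDR = 0.193) at 30 ng/ml. Its call was lost in 13 of 22 alternative settings, among them the fits without unstimulated culture 1, 2, 4 or 5, without culture 2 or 3 at 30 ng/ml or without culture 1, 3, 4 or 5 at 100 ng/ml, with FDR up to 0.11. *Pfkp*, the platelet type, ranged from 100.5 to 123 CPM and was not called. Per length, *Pfkl* made up 34.1 ± 2.0% (SD, n = 5) of phosphofructokinase TPM in unstimulated cultures, 24.8 ± 4.6% with 30 ng/ml and 23.2 ± 1.8% with 100 ng/ml, while *Pfkm* made up 38.7 ± 2.1%, 44.8 ± 3.9% and 46.9 ± 1.7%.

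Aldolase cleaves fructose 1,6-bisphosphate. *Aldoa* measured 843, 777, 899.7, 865 and 863 CPM in unstimulated cultures 1 to 5, 628, 672, 654, 754 and 643 CPM with 30 ng/ml and 720.4, 552, 687, 678 and 694 CPM with 100 ng/ml. The general form *Aldoa* (ENSMUSG00000030695, chr7:126393822-126399923) was lower in every stimulated culture than in any unstimulated one, with log2 fold changes of -0.35 ± 0.07 (SE; FDR = 0.00327) at 100 ng/ml and -0.34 ± 0.07 (SE; FDR = 0.00516) at 30 ng/ml. *Aldoc* measured 346, 362, 375, 383 and 362 CPM in unstimulated cultures 1 to 5, 481, 443, 438, 426 and 416 CPM with 30 ng/ml and 479, 372, 442, 475 and 468 CPM with 100 ng/ml. *Aldoc* (ENSMUSG00000017390, chr11:78213619-78218889), the brain form known from astrocytes and from Purkinje cells, went the other way. It had log2 fold changes of 0.29 ± 0.06 (SE; FDR = 0.00651) at 100 ng/ml, where culture 2 was within the unstimulated range, and 0.27 ± 0.06 (SE; FDR = 0.012) at 30 ng/ml, where the groups did not overlap. The 11 astrocyte markers summed to 4821 to 5563 TPM without IL-12, 5891 to 6713 TPM at 30 ng/ml and 5764 to 6155 TPM at 100 ng/ml. Singly they were mixed, with 2 called higher, 1 lower and a median log2 fold change of -0.02 at 100 ng/ml, and 3 higher, none lower and a median of 0.17 at 30 ng/ml. Their part in the result was not tested.

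Because aldolase A and aldolase C carry out the same step, the sequences just upstream of their main transcripts are shown with that of *Ldha*, the gene for lactate dehydrogenase A described further on. Each is the 250 bases before the start of the gene's most abundant transcript in GRCm39, chr7:126398427-126398676 (- strand) for *Aldoa*, chr11:78214776-78215025 (+ strand) for *Aldoc* and chr7:46495013-46495262 (+ strand) for *Ldha*. Capitals mark ACGTG or GCGTG on either strand, the core to which hypoxia-inducible factors are known to bind. Part of it is shared with the E-box CACGTG.
Aldoa: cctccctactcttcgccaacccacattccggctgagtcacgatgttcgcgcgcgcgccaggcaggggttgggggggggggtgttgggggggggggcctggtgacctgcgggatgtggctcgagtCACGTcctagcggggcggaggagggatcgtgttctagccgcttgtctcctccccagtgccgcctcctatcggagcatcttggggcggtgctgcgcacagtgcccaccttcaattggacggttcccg
Aldoc: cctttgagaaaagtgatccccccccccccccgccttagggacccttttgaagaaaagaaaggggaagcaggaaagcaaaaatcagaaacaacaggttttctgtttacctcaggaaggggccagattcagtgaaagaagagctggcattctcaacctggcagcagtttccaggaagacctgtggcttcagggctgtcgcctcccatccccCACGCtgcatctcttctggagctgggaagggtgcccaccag
Ldha: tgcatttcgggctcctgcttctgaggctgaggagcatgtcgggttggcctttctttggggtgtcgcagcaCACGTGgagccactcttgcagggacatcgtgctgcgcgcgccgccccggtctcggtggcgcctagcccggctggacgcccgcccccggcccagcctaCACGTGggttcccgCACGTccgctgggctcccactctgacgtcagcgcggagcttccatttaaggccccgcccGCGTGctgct
*Ldha* held the core at 4 places, starting 180, 83, 69 and 10 bases before the transcript, where overlapping matches count as 1 place. *Aldoa* held it once, 126 bases before, and *Aldoc* once, 41 bases before. Among all tested genes, 48.8% of such windows held either core and 19.5% held ACGTG. Of the 12 genes called lower at either concentration, 8 held either core and 7 held ACGTG. Of the 20 genes called in neither direction 12 and 7 did, and of the 2 called higher 2 and 1 did. For *Aldoa*, *Aldoc* and *Ldha*, as for *Gpi1* and *Pkm*, the most abundant transcript starts inside the gene, and the window lies within the gene's annotated span. The same held for *Hk1*, *Eno3*, *Ldhb*, *Mpc1*, *Mpc2*, *Dlat*, *Pdk3*, *Pdp1* and *Cs*, which were not called. Further windows lay partly within the span, among them those of *Eno1*, *Gapdh* and *Pgm1*. The counts of the core thus include windows that are not upstream of the whole gene, in called and uncalled genes alike. The windows of the genes called lower had a median GC content of 62.2%, against 56% over all tested genes. A match is a string of letters and not a site shown to be used.

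*Tpi1* measured 418, 352, 409, 418 and 397 CPM in unstimulated cultures 1 to 5, 228, 257, 260.1, 331 and 254 CPM with 30 ng/ml and 283, 229, 259.8, 262 and 266 CPM with 100 ng/ml. Triose isomerase, encoded by *Tpi1* (ENSMUSG00000023456, chr6:124787549-124791273), joins the products of aldolase, and every stimulated culture lay below every unstimulated one. Its log2 fold change was -0.62 ± 0.08 (SE; FDR = 0.000168) at 100 ng/ml and -0.58 ± 0.08 (SE; FDR = 0.000509) at 30 ng/ml, falls of 34.8% and 33.3%. *Gapdh* (ENSMUSG00000057666, chr6:125135289-125143518), the oxidising step, was the most abundant gene of the pathway at 3019 ± 159 TPM without IL-12. *Gapdh* measured 1954, 1828, 2142, 2069 and 2016 CPM in unstimulated cultures 1 to 5, 1528, 1712, 1672, 1809 and 1508 CPM with 30 ng/ml and 1869, 1364, 1719.6, 1788 and 1764 CPM with 100 ng/ml. Culture 1 at 100 ng/ml lay within the unstimulated range, and at 30 ng/ml the groups did not overlap. Its log2 fold change was -0.28 ± 0.07 (SE; FDR = 0.0265) at 30 ng/ml, a call lost without unstimulated culture 3, 4 or 5 or without culture 1 or 5 at 30 ng/ml (FDR up to 0.0796). At 100 ng/ml it was -0.23 ± 0.07 (SE; FDR = 0.0545), which passed without unstimulated culture 2, without culture 1 at 100 ng/ml, and with DESeq2 (FDR down to 0.0215). *Gapdh* is often used to scale other measurements, and its CPM here differed between groups by 17.8% at 30 ng/ml.

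*Pgk1* measured 635, 569, 607, 596 and 609.6 CPM in unstimulated cultures 1 to 5, 478, 483, 495, 547 and 467 CPM with 30 ng/ml and 504, 454, 486, 486 and 488 CPM with 100 ng/ml. Phosphoglycerate kinase *Pgk1* (ENSMUSG00000062070, chrX:105230706-105247305), which yields ATP, was lower in every stimulated culture, with log2 fold changes of -0.32 ± 0.05 (SE; FDR = 0.000421) at 100 ng/ml and -0.29 ± 0.05 (SE; FDR = 0.00137) at 30 ng/ml. *Pgam1* measured 468, 429, 481, 503 and 473 CPM in unstimulated cultures 1 to 5, 341, 361, 381, 405 and 360.1 CPM with 30 ng/ml and 362, 336, 375, 392 and 374 CPM with 100 ng/ml. The mutase *Pgam1* (ENSMUSG00000011752, chr19:41900341-41907104) was likewise separate from the unstimulated cultures in both groups, with -0.36 ± 0.05 (SE; FDR = 0.000508) at 100 ng/ml and -0.35 ± 0.05 (SE; FDR = 0.00105) at 30 ng/ml on the log2 scale. Its muscle form *Pgam2* held 1 to 11 counts per culture and did not pass the filter. *Bpgm*, which makes 2,3-bisphosphoglycerate, ranged from 56.3 to 65.1 CPM and was not called.

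Enolase makes phosphoenolpyruvate. *Eno1* measured 855, 763, 863, 802 and 851 CPM in unstimulated cultures 1 to 5, 608, 626, 642, 734 and 597 CPM with 30 ng/ml and 729.9, 586, 681, 665 and 659 CPM with 100 ng/ml. All stimulated cultures were below all unstimulated ones for *Eno1* (ENSMUSG00000063524, chr4:150321073-150337027), with log2 fold changes of -0.32 ± 0.06 (SE; FDR = 0.00419) at 100 ng/ml and -0.37 ± 0.06 (SE; FDR = 0.00196) at 30 ng/ml. Neither the neuronal *Eno2* (31.7 to 46.4 CPM) nor the muscle form *Eno3* (3.85 to 5.44 CPM) was called. Per length, *Eno1* supplied 93.6 ± 0.66% (SD, n = 5) of enolase TPM in unstimulated cultures.

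Pyruvate kinase closes glycolysis. *Pkm* measured 1029.7, 948, 1116, 1089.8 and 1065 CPM in unstimulated cultures 1 to 5, 677, 723, 757, 839 and 702 CPM with 30 ng/ml and 837, 700.4, 770.5, 781 and 763 CPM with 100 ng/ml. *Pkm* (ENSMUSG00000032294, chr9:59563364-59586663) was lower in every stimulated culture. With 100 ng/ml the fall was 26.6%, a log2 fold change of -0.45 ± 0.06 (SE; FDR = 0.000233), and with 30 ng/ml it was 29.6%, or -0.51 ± 0.06 (SE; FDR = 0.000213). The gene makes 2 main proteins from alternative exons of 167 bases, M1 in neurons and muscle and M2 in growing and glial cells. The exons lie at chr9:59582312-59582478 (M1) and chr9:59582851-59583017 (M2) on the plus strand of GRCm39. They are printed because they set the transcripts apart, and capitals mark the 64 bases at which they differ, with 61.7% identity.
M1 exon: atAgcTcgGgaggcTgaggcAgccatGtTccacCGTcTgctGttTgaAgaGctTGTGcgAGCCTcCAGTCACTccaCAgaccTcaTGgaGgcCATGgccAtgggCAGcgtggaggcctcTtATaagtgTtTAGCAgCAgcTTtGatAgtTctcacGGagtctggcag
M2 exon: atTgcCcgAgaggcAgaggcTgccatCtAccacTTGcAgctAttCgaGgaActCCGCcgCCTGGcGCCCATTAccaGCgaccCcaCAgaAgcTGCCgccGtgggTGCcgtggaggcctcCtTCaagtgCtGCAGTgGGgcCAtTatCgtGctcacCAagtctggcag
Transcripts with the M2 exon held 649 ± 30.7 TPM (SD, n = 5) without IL-12, 476 ± 37.6 TPM at 30 ng/ml and 479.6 ± 23.0 TPM at 100 ng/ml. Those with the M1 exon held 105 ± 20.1, 66.3 ± 0.54 and 74.5 ± 9.0 TPM. So M1 made up 13.9 ± 2.2% of both in unstimulated cultures, 12.3 ± 0.80% with 30 ng/ml and 13.5 ± 1.9% with 100 ng/ml. The difference in share was -1.65 percentage points at 30 ng/ml (2-sided exact permutation p = 0.175, adjusted 0.349) and -0.44 at 100 ng/ml (exact p = 0.722, adjusted 0.722). A shift between the exons was therefore not detected, and without unstimulated culture 4 the difference at 30 ng/ml was -2.28 points with an unadjusted exact permutation p of 0.0476. Another coding transcript that holds neither exon, Pkm-211, went from 125 ± 37.2 TPM to 79.4 ± 18.0 and 75.9 ± 13.9 TPM.

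**Figure D2:**
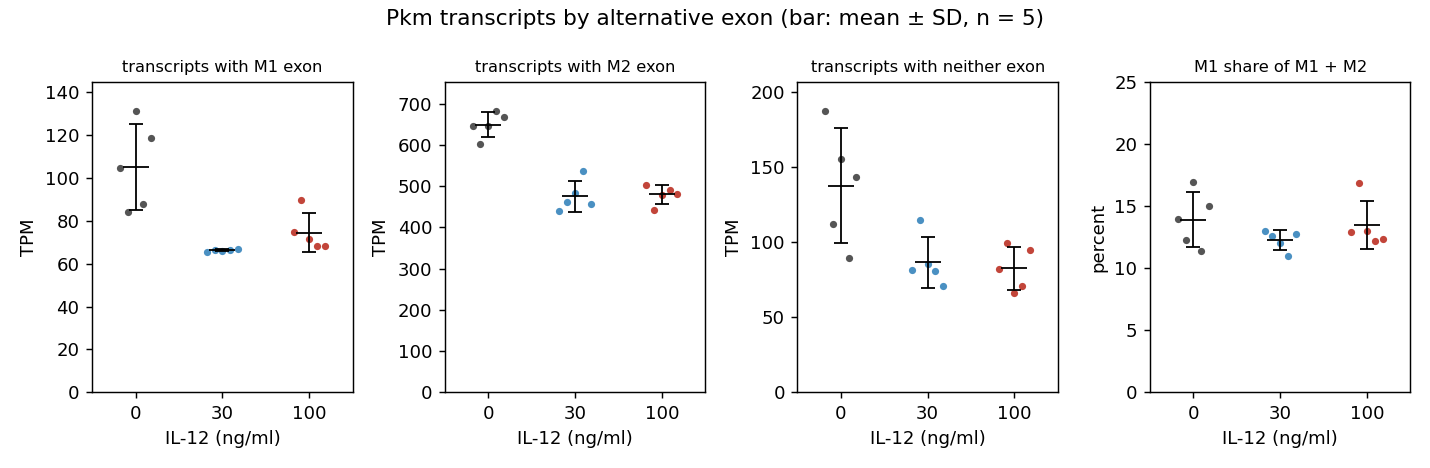
TPM of Pkm transcripts with the M1 exon, the M2 exon or neither, and the M1 share in percent, in each culture (points) by IL-12 in ng/ml (x axis), with mean ± SD over 5 cultures (bars). M2 transcripts lie at 602 to 683 TPM without IL-12 and at 440 to 537 TPM at 30 ng/ml, while the M1 shares overlap between groups.

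Lactate dehydrogenase A favours lactate formation and the B form its use. *Ldha* measured 525, 426, 489.9, 499 and 485 CPM in unstimulated cultures 1 to 5, 274, 317, 325, 400.0 and 319 CPM with 30 ng/ml and 358, 297, 341, 334 and 327 CPM with 100 ng/ml. *Ldha* (ENSMUSG00000063229, chr7:46490899-46505061) was lower in every stimulated culture, with log2 fold changes of -0.55 ± 0.08 (SE; FDR = 0.000387) at 100 ng/ml and -0.57 ± 0.08 (SE; FDR = 0.000519) at 30 ng/ml, falls of 31.6% and 32.6%. *Ldhb* measured 405, 489, 494, 418 and 431 CPM in unstimulated cultures 1 to 5, 506, 460.1, 472, 467 and 503 CPM with 30 ng/ml and 538, 454, 517, 443 and 494 CPM with 100 ng/ml. The groups overlapped for *Ldhb* (ENSMUSG00000030246, chr6:142435672-142454586), which had 0.13 ± 0.06 (SE; FDR = 0.215) and 0.11 ± 0.06 (SE; FDR = 0.351). In TPM, *Ldha* went from 536 ± 45.5 (SD, n = 5) to 367 ± 46.2 at 30 ng/ml and 364 ± 13.8 at 100 ng/ml, and *Ldhb* from 638 ± 53.9 to 712 ± 44.3 and 698 ± 41.4. The lactate and pyruvate carriers *Slc16a1* (MCT1, 288 to 346 CPM) and *Slc16a7* (MCT2, 13.4 to 21.4 CPM) were not called at either concentration by edgeR or DESeq2, and neither had an unadjusted p under 0.05.

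**Figure D3:**
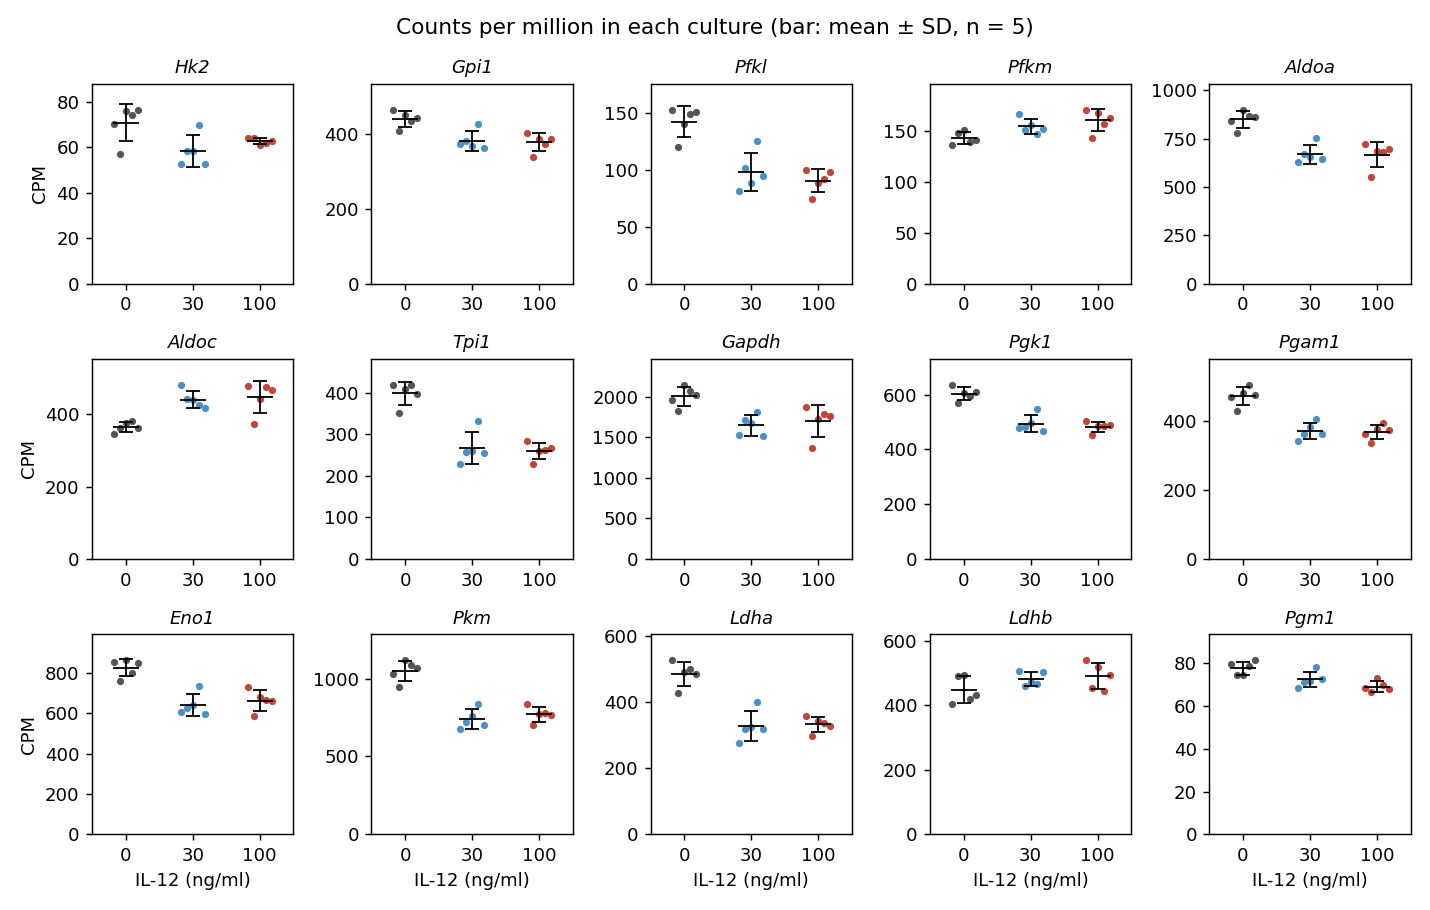
CPM of the 14 called genes and Ldhb in each culture (points) by IL-12 concentration in ng/ml (x axis), with mean ± SD over 5 cultures (bars) and y axes from 0. Ldha lies at 426 to 525 CPM without IL-12 and at 297 to 358 CPM at 100 ng/ml, and the means of Aldoc and Pfkm lie higher with IL-12.

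The genes that fell also varied together within each group. Unstimulated culture 2 was the lowest of its group in all 12 genes called lower at either concentration. Culture 4 was the highest at 30 ng/ml in all 11 called there, and culture 2 the lowest at 100 ng/ml in all 10. These genes therefore do not give independent evidence. At 100 ng/ml, 10 of the 34 genes were lower in every stimulated than in every unstimulated culture, and 8 were so at 30 ng/ml, against 2.85% and 3.45% of all tested genes.

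Pyruvate enters mitochondria through a carrier formed by *Mpc1* and *Mpc2*. None of the 8 genes of pyruvate oxidation was called at either concentration by edgeR or DESeq2. Over all tested genes, edgeR called 9.77% at 100 ng/ml and 7.87% at 30 ng/ml. With unadjusted p under 0.05 there was none at 100 ng/ml and 2 at 30 ng/ml, *Pdha1* (0.09 ± 0.04 (SE; FDR = 0.201)) and *Cs* (0.10 ± 0.04 (SE; FDR = 0.132)). Of all tested genes, 25.6% and 22.7% had such a p in edgeR. Whether these 8 genes depart from those shares was not tested. *Mpc1* ranged from 172 to 216 CPM over all cultures and *Mpc2* from 32.3 to 43.9 CPM. Of the pyruvate dehydrogenase complex, which makes acetyl-CoA, the catalytic *Pdha1* and *Pdhb* ranged from 175 to 206 and 65.9 to 77.7 CPM. Its acetyltransferase *Dlat* ranged from 41.1 to 49.1 CPM, its dehydrogenase *Dld* from 87.0 to 95.3 CPM and its binding protein *Pdhx* from 28.6 to 31.7 CPM. Citrate synthase, *Cs*, ranged from 221 to 258 CPM. Their log2 fold changes lay between -0.09 and 0.07 at 100 ng/ml and between -0.07 and 0.10 at 30 ng/ml, with SE of 0.04 to 0.07. The kinases *Pdk2* (55.6 to 71.6 CPM) and *Pdk3* (20.1 to 24.1 CPM), which switch the complex off, and the phosphatase *Pdp1* (91.8 to 125 CPM), which switches it on, were not called either.

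Set side by side, the 15 glycolysis genes had a median log2 fold change of -0.23 at 100 ng/ml and -0.28 at 30 ng/ml, with 8 and 10 called lower and 2 and 1 higher. The 8 pyruvate oxidation genes had medians of 0.04 and 0.03, and all tested genes had -0.0038 and 0.00014. Summed TPM of the glycolysis genes was 9085, 7972, 8879.7, 8586 and 9029.6 in unstimulated cultures 1 to 5, 6934, 7308, 7120.3, 7769 and 6855 with 30 ng/ml, and 7361, 6353, 7109, 7294 and 7373 with 100 ng/ml. No stimulated culture reached the unstimulated range. The sum was 8710.5 ± 456 TPM (SD, n = 5) without IL-12, which is 0.871% of all TPM, and 7197 ± 364 and 7098 ± 430 TPM, or 0.7197% and 0.7098%, in the groups with 30 and 100 ng/ml. For pyruvate oxidation the sum was 986 ± 33.4, 1021 ± 27.3 and 1015 ± 49.7 TPM. The mean log2 TPM of glycolysis minus that of pyruvate oxidation went from 1.57 ± 0.09 to 1.32 ± 0.06 at 30 ng/ml and 1.33 ± 0.10 at 100 ng/ml, a description without a test.

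**Figure D4:**
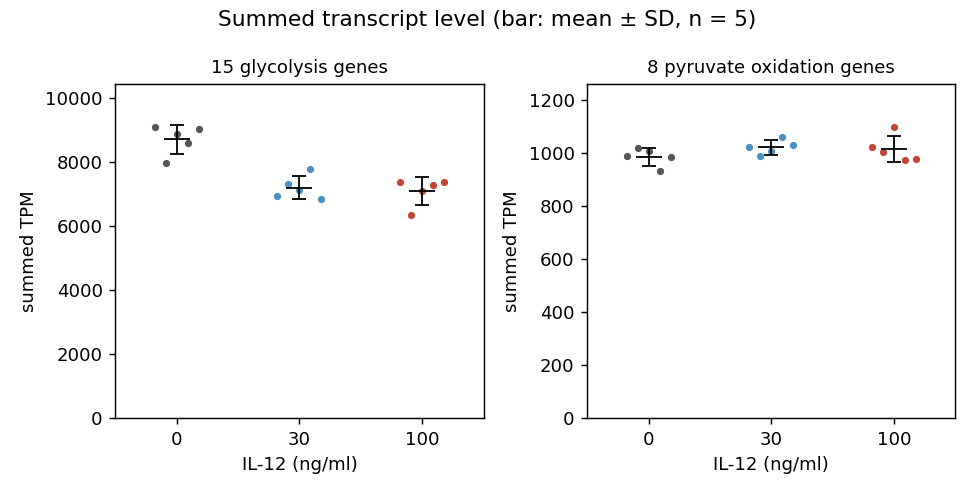
Summed TPM of the 15 glycolysis genes (left) and the 8 pyruvate oxidation genes (right) in each culture (points) by IL-12 in ng/ml, with mean ± SD over 5 cultures (bars) and y axes from 0. The glycolysis sum is 7972 to 9085 TPM without IL-12 and 6353 to 7769 TPM with it, and the pyruvate oxidation sums overlap between groups.

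Isozymes and other related genes listed for the same step were contrasted by the log2 ratio of their TPM in each culture. Of 11 pairs planned, 10 had both genes past the filter, and each was compared at 2 concentrations by a 2-sided exact permutation test, whose smallest p is 0.00794. After adjustment over the 20 tests, 8 ratios differed, and 10 had an unadjusted p under 0.05. The *Ldhb* to *Ldha* ratio was 0.999, 1.48, 1.31, 1.08 and 1.14 in unstimulated cultures 1 to 5, 2.44, 1.87, 2.00, 1.5 and 2.04 with 30 ng/ml and 1.94, 1.98, 1.96, 1.74 and 1.97 with 100 ng/ml. No stimulated culture overlapped the unstimulated ones, and the log2 ratio was higher by 0.69 at 100 ng/ml and by 0.71 at 30 ng/ml (both exact p = 0.00794, adjusted 0.0265). At 30 ng/ml it did not pass without unstimulated culture 1 or 5 (adjusted p = 0.0529). The *Aldoc* to *Aldoa* ratio was 0.297, 0.34, 0.308, 0.333 and 0.303 in unstimulated cultures 1 to 5, 0.566, 0.488, 0.48, 0.406 and 0.484 with 30 ng/ml and 0.513, 0.479, 0.458, 0.512 and 0.486 with 100 ng/ml. Again the groups were separate, with log2 ratios higher by 0.63 and 0.61 (both adjusted exact p = 0.0265). The *Pfkl* to *Pfkm* ratio was 0.999, 0.761, 0.875, 0.952 and 0.837 in unstimulated cultures 1 to 5, 0.391, 0.548, 0.547, 0.83 and 0.511 with 30 ng/ml and 0.511, 0.448, 0.436, 0.526 and 0.562 with 100 ng/ml. It was lower by 0.83 on the log2 scale at 100 ng/ml (adjusted exact p = 0.0265) and by 0.68 at 30 ng/ml (adjusted exact p = 0.0397), where culture 4 overlapped. The latter did not pass without unstimulated culture 1, 3, 4 or 5 (adjusted p of 0.0529 to 0.0595).

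Smaller or less stable differences were found in other pairs. *Pgm2* to *Pgm1* was higher by 0.22 at 100 ng/ml (adjusted exact p = 0.0265), which did not pass when any single culture at 100 ng/ml was left out (adjusted p of 0.0529 to 0.0595). *Eno3* to *Eno1* was higher by 0.66 at 30 ng/ml (adjusted exact p = 0.0397) and by 0.50 at 100 ng/ml (adjusted exact p = 0.0529). The former did not pass without unstimulated culture 1, 2 or 5 or without culture 1, 2 or 5 at 30 ng/ml (adjusted p of 0.0529 to 0.0882). *Hk2* to *Hk1* had a difference of -0.34 at 30 ng/ml (adjusted exact p = 0.0635). The pairs *Pfkp* to *Pfkm*, *Eno2* to *Eno1*, *Slc16a7* to *Slc16a1* and *Pdk3* to *Pdk2* did not pass at either concentration.

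**Figure D5:**
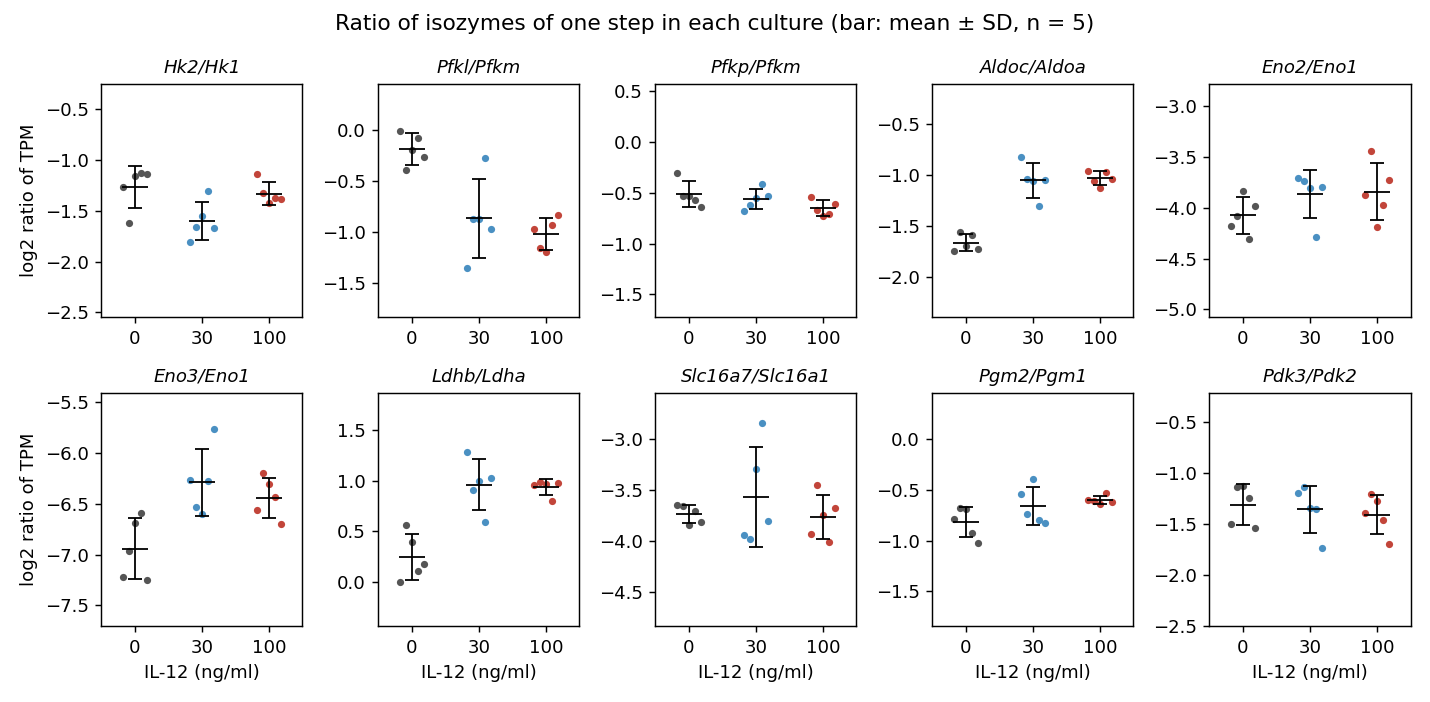
Log2 ratio of TPM of 10 pairs of isozymes or related genes in each culture (points) by IL-12 in ng/ml (x axis). Bars show mean ± SD over 5 cultures, and every y axis spans the same range. Ldhb/Ldha and Aldoc/Aldoa lie higher and Pfkl/Pfkm lower in IL-12 cultures.

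The concentrations were also compared with each other. Between 100 and 30 ng/ml, edgeR called none of the 34 genes, against 0.579% of all tested genes, and DESeq2 called none of the 34. In edgeR 1 of the 34 had an unadjusted p under 0.05, *Hk1* (-0.12 ± 0.05 (SE; FDR = 0.306)), against 12.7% of all tested genes. The log2 differences ranged from -0.16 to 0.10. Against unstimulated cultures, edgeR called 9 of 15 microglial markers lower at 30 ng/ml and none at 100 ng/ml, where 2 had an unadjusted p under 0.05 and DESeq2 called 0. Compared directly, all 15 had higher values at 100 than at 30 ng/ml, by 0.06 to 0.54 on the log2 scale, of which edgeR called 0 and DESeq2 1, with 13 at an unadjusted p under 0.05. Their summed TPM was 9610 to 13539 without IL-12, 7701 to 9663 at 30 ng/ml and 9194 to 12090 at 100 ng/ml. For the oligodendrocyte lineage 1 of 12 markers was called lower at 30 ng/ml and 3 at 100 ng/ml. Median log2 fold changes were -0.10 and -0.17, with 10 and 12 of the 12 negative. Their summed TPM was 6947 to 10282 without IL-12, 6974 to 8544 at 30 ng/ml and 6220 to 7537 at 100 ng/ml. Of 6 markers of fibroblasts and meninges, 2 were called higher at 100 ng/ml and none at 30 ng/ml. They summed to 418 to 560 TPM without IL-12, 443 to 531 at 30 ng/ml and 518 to 666 at 100 ng/ml. Of the 14 tested neuronal markers 1 was called lower and 1 higher at 100 ng/ml, with a median log2 fold change of -0.20, and 2 lower and 1 higher at 30 ng/ml, with a median of -0.42, while their summed TPM was 194 to 255 without IL-12, 227 to 265 at 30 ng/ml and 217 to 250 at 100 ng/ml. Of 5 endothelial markers 3 were tested and 1 was called lower at each concentration, with sums of 17.9 to 26.4 TPM without IL-12, 12.8 to 17.1 TPM at 30 ng/ml and 13.9 to 18.6 TPM at 100 ng/ml. The part of these cell types in the fall of glycolysis genes was not tested.

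The wider pathway was read from 63 further genes, of which 56 passed the filter. Of the 56, 4 fell and 6 rose at 100 ng/ml, where 3.93% of all tested genes were called lower and 5.83% higher. In the 30 ng/ml group 6 fell and 9 rose, where 3.71% of all tested genes were called lower and 4.16% higher. Among transporters, *Slc16a3* (MCT4, the lactate exporter of glycolytic cells) averaged 62.4 ± 6.49 CPM without IL-12, 20.5 ± 6.11 CPM with 30 ng/ml and 21.7 ± 2.87 CPM with 100 ng/ml (SD, n = 5). Its log2 fold change was -1.52 ± 0.15 (SE; FDR = 6.13e-06) at 100 ng/ml and -1.61 ± 0.15 (SE; FDR = 1.91e-05) at 30 ng/ml. The glucose carrier *Slc2a1* (GLUT1) had log2 fold changes of -0.42 ± 0.06 (SE; FDR = 0.000181) and -0.36 ± 0.06 (SE; FDR = 0.00112). *Slc2a3* (GLUT3), the neuronal carrier, rose, with 0.15 ± 0.04 (SE; FDR = 0.018) and 0.16 ± 0.04 (SE; FDR = 0.0139).

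*Pdk1*, a kinase that shuts the pyruvate dehydrogenase complex, averaged 70.4 ± 8.76 CPM without IL-12, 42.5 ± 7.39 CPM with 30 ng/ml and 39.8 ± 2.16 CPM with 100 ng/ml (SD, n = 5). It had log2 fold changes of -0.82 ± 0.10 (SE; FDR = 6.94e-05) at 100 ng/ml and -0.73 ± 0.10 (SE; FDR = 0.000469) at 30 ng/ml, unlike *Pdk2* and *Pdk3*, which were not called, though this contrast was not tested. In the same subgroup *Pck2*, the mitochondrial phosphoenolpyruvate carboxykinase, rose at both (0.35 ± 0.07 (SE; FDR = 0.00623) at 100 ng/ml), and *Me1*, which turns malate into pyruvate, rose at 30 ng/ml (0.31 ± 0.05 (SE; FDR = 0.0014)). Further along the citric acid cycle, *Ogdh*, the oxoglutarate dehydrogenase, averaged 174 ± 8.92 CPM without IL-12, 274 ± 10.95 CPM with 30 ng/ml and 285 ± 10.2 CPM with 100 ng/ml (SD, n = 5). Its log2 fold change was 0.72 ± 0.04 (SE; FDR = 1.62e-08) at 100 ng/ml and 0.66 ± 0.04 (SE; FDR = 2.55e-07) at 30 ng/ml, and of the other 14 genes of the cycle *Dlst*, its partner, rose at 100 ng/ml (0.13 ± 0.03 (SE; FDR = 0.016)). Of the 7 glycogen genes, *Gys1*, a glycogen synthase, fell at 100 ng/ml (-0.22 ± 0.06 (SE; FDR = 0.0238)), while *Pygl*, a phosphorylase, fell and *Gbe1*, the branching enzyme, rose at 30 ng/ml (-0.32 ± 0.07 (SE; FDR = 0.00832) and 0.33 ± 0.10 (SE; FDR = 0.0433)).

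Other genes were low or rarely called. The regulator *Pfkfb1* (-0.65 ± 0.17 (SE; FDR = 0.0291)) fell at 30 ng/ml from under 5 CPM, and *Pfkfb4* rose at 100 ng/ml (0.17 ± 0.05 (SE; FDR = 0.0436)). *Gpd1* and *Gpd2*, which form the glycerol phosphate shuttle, rose at 30 ng/ml (0.22 ± 0.06 (SE; FDR = 0.0426) and 0.20 ± 0.05 (SE; FDR = 0.0303)).

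Several of the abundant genes have near-identical pseudogenes, and the estimates divide shared reads between the copies, which limits *Gapdh*, *Tpi1*, *Pgam1*, *Aldoa*, *Eno1*, *Ldha* and *Pkm*. Copies that carry the parent's name held up to 0.009% of the parent's counts for *Aldoa*, 0.069 to 0.146% for *Gapdh* and up to 0.168% for *Eno1*. Pseudogenes with other names were not counted, and no share is given for *Tpi1*, *Pgam1*, *Ldha* or *Pkm*. These shares therefore do not measure how many reads are shared.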

How the data were processed

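Poly(A) RNA of 15 cultures was sequenced with a stranded kit. Per the labels, the submitters' processing notes name FastQC 0.10.0, STAR 2.7.8a, featureCounts and the build GRCm39. As deposited, the files instead hold an estimated count and a TPM value per transcript, made by the authors with a program not given in the sources used here, with transcript lengths. Of 121798 transcripts, 120537 (99.0%) matched GENCODE M39 and were summed by gene, and 0.677 to 0.712% of counts lay on unmatched transcripts. Each culture held 25746096 to 38435850 counts.

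Rounded counts were tested with edgeR 4.0.16 in R 4.3.3 (quasi-likelihood, TMM scaling, at least 1 CPM in at least 2 cultures, all 15 cultures in 1 fit), with Benjamini-Hochberg adjustment over 15360 genes. The biological coefficient of variation was 8%. Each SE of a log2 fold change was worked back from the test, as its absolute size divided by the square root of the F statistic. CPM are TMM-scaled, TPM is used to compare genes, and isozyme ratios were tested by exact permutation in SciPy 1.17.1. Sequences were read from GRCm39. Alternatives were DESeq2 1.42.0, other scalings and filters, a replicate block and leaving out each culture. The fit was tested on simulated data. The members and lists were chosen with earlier results of these data known. Genes called at either concentration have every culture printed, others a range, and of further pathway genes at most 3 per group, by smallest FDR, are named. One called gene of the wider pathway and one upstream sequence are not reported here.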

Additional observations from a re-analysis of the deposited data

Results flagged for a closer look

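Among 102 groups of 5 cultures, 7 held a culture set apart from the rest by more than Dixon's 95% limit for 5 values (0.71 of the range), where chance gives about 1 in 20. *Hk1* was lowest in unstimulated culture 4 (108 CPM, the others 117 to 117). *Gpi1* was highest in culture 4 at 30 ng/ml (427 CPM, the others 360.5 to 379). *Aldoa* was lowest in culture 2 at 100 ng/ml (552 CPM, the others 678 to 720.4). *Pdha1* was highest in unstimulated culture 2 (186 CPM, the others 175 to 177). *Pdhx* was lowest in culture 4 at 30 ng/ml (28.7 CPM, the others 31.2 to 31.7). *Pdp1* was highest in unstimulated culture 2 (125 CPM, the others 96.9 to 104) and in culture 2 at 100 ng/ml (113 CPM, the others 93.9 to 95.9).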

How the results depend on the processing

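The count of pathway genes called stayed within 9 to 13 at 100 ng/ml and 8 to 12 at 30 ng/ml over 23 alternatives each, and was 0 between the concentrations in all of them. Leaving out 1 culture gave 10 to 13 and 9 to 12. The number of isozyme ratios that differed was 8, 13 with TMM-scaled CPM in place of TPM, 10 with protein-coding transcripts alone, and between 5 (without unstimulated culture 1 or 5) and 11 when 1 culture was left out. The replicate block gave 0 ratios, since 5 pairs cannot give an exact permutation p under 0.0625, and 11 and 12 called genes at 100 and 30 ng/ml, with *Pfkm* no longer called. Over all genes, pairing by replicate number was weak. Over 15 same-number pairs the correlation of deviations was -0.183 to 0.264, above 0.1 in 4, and 5 of 15 cultures correlated best with their own number. These correlations cannot exclude that equal numbers share a preparation. In the genes that fell, culture 2 was the lowest both without IL-12 and at 100 ng/ml, while at 30 ng/ml culture 4 was the highest. The M1 share of *Pkm* at 100 ng/ml changed sign without unstimulated culture 3 (0.32 percentage points, exact p = 0.833) and ranged from -1.29 to 0.32 points when 1 culture was left out. At 30 ng/ml it ranged from -2.28 (without unstimulated culture 4, exact p = 0.0476) to -0.89 points. Genes called over all tested numbered 1500 at 100 ng/ml and 2932 without culture 2 of that group, 946 without unstimulated culture 1, 940 without unstimulated culture 5, 953 and 949 without culture 1 or 3 at 100 ng/ml, and 946 in a fit of the compared groups. At 30 ng/ml the 1209 became 673 and 794 without unstimulated culture 3 or 4, and 740 and 754 without culture 1 or 5 at 30 ng/ml. The glycolysis minus pyruvate oxidation difference was -0.33 to -0.20 at 100 ng/ml and -0.28 to -0.23 at 30 ng/ml. Depth limits *Pgam2* alone, whose 1 to 11 counts allow no test.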
